A study of Micropterus salmoides with 45 samples.

Results

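miR-155-5p, listed as msa-miR-155-5p, is 1 of 266 miRNAs measured by small RNA sequencing in the liver of largemouth bass (Micropterus salmoides), a freshwater fish, during acute hypoxia. It was chosen from its difference between each hypoxia group and the control group of the same hour, so those differences are described here and not tested. The series' design text speaks of common carp and temperature, while its title and the sample labels, followed here, give largemouth bass and oxygen. The 45 libraries form 15 groups of 3. Dissolved oxygen was held within 0.2 mg/L of 1.2 mg/L in severe hypoxia, of 3.0 mg/L in moderate hypoxia and of 7.0 mg/L in the control. Each level was sampled at 0, 4, 8, 12 and 24 h, where 0 h is the point at which nitrogen had brought oxygen down within 2 h. All fish, controls included, were 6 months old, fasted and kept at 20 °C, with 30 fish in each of 9 tanks and 3 tanks per oxygen level. The labels mention livers of 5 fish but do not tie a library to a fish, a pool or a tank. Tank and oxygen level therefore cannot be told apart, and a p-value here takes in the variation among libraries alone, which may be technical.

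miR-155 is cut from a long noncoding transcript that is switched on when immune cells are activated. In mammals, macrophages, dendritic cells, B cells and T cells raise it after Toll-like receptor or antigen receptor signals, through NF-kB and AP-1. Its mammalian targets include the cytokine signalling inhibitor SOCS1, the phosphatase SHIP1 and the transcription factor PU.1, and the resting liver holds little of it. In a whole liver library, fewer cells of a type and less RNA per cell cannot be told apart.

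miR-155-5p was a rare miRNA in every library. Its mean over the 45 libraries was 10.6 rpm (reads scaled to a common library total), which placed it at rank 169 of 266, and within single libraries it ranked between 139 and 213. The spacing of low values implies library depths of 1.01 to 5.57 mega-reads, with a median of 2.23. At these depths the measured values correspond to 3 to 88 reads, with a median of 19, and to 733 reads in all. A floor of 3 reads lies at 0.539 to 2.96 rpm, depending on the library.

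In most groups 1 of the 3 deposited values was the mean of the other 2 and holds no measurement of its own. For miR-155-5p this was the case for 14 values, which left 31 measured values, 2 in each group and 3 in the control at 12 h. Of the 31 measured values, 30 came out as whole reads within 0.05 read, and of the 14 averaged values 1 did. Group means, SDs and n given here use the measured values alone. The mean over the 45 libraries, the ranks, the listed totals, the filters on mean rpm and the marker sums use all deposited values.

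Across all hours, the 10 measured values of severe hypoxia ran from 5.89 to 37.2 rpm with a median of 12.7 rpm. The 10 of moderate hypoxia ran from 8.38 to 16.1 rpm with a median of 10.1 rpm, and the 11 of the control from 1.28 to 10.5 rpm with a median of 5.94 rpm. The mean of the 5 group means was 14.8 ± 6.86 rpm in severe hypoxia, 10.9 ± 2.58 rpm in moderate hypoxia and 5.98 ± 1.58 rpm in the control (SD over hours, n = 5). The ratio to control was 2.47 for severe and 1.83 for moderate hypoxia.

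At 0 h, when the low oxygen level had just been reached, the severe libraries were far apart, with 37.2 rpm (88 reads) in library 1 and 11.2 rpm (24 reads) in library 3. The moderate libraries 2 and 3 had 12.4 rpm (56 reads) and 9.90 rpm (15 reads). The control libraries 1 and 2 had 4.15 rpm (11 reads) and 10.5 rpm (25 reads). Both severe values lay above both control values, while the moderate values lay on either side of the higher control value. The group means were 24.2 ± 18.4 rpm in severe hypoxia, 11.2 ± 1.80 rpm in moderate hypoxia and 7.31 ± 4.47 rpm in the control (SD, n = 2 each). On the log2(rpm + 1) scale the difference from control was 1.49 (SE 0.44) for severe and 0.66 (SE 0.44) for moderate hypoxia. Without severe library 1 the severe difference was 0.67, and without control library 2 it was 2.07. The moderate difference ran from 0.08 without control library 1 to 1.23 without control library 2.

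After 4 h the severe libraries 1 and 3 had 16.4 rpm (39 reads) and 14.25 rpm (46 reads). The moderate libraries 1 and 3 had 8.38 rpm (14 reads) and 8.72 rpm (22 reads), and the control libraries 1 and 2 had 7.43 rpm (25 reads) and 7.29 rpm (22 reads). No value of any of the 3 groups lay within the range of another, with severe highest and control lowest. The severe mean was 2.08 times the control mean (15.3 ± 1.55 against 7.36 ± 0.0990 rpm), and the moderate mean 1.16 times (8.55 ± 0.240 rpm). The log2 differences were 0.96 and 0.19 (SE 0.44 each).

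At 8 h both hypoxia groups were high. Severe libraries 1 and 2 had 19.3 rpm (43 reads) and 15.9 rpm (25 reads), and moderate libraries 1 and 3 had 14.1 rpm (19 reads) and 16.1 rpm (32 reads). The control libraries 1 and 2 had 6.76 rpm (18 reads) and 5.94 rpm (12 reads), below all 4 hypoxia values. The severe and moderate values overlapped each other. Severe hypoxia stood at 2.77 times control (17.6 ± 2.43 against 6.35 ± 0.580 rpm) and moderate hypoxia at 2.38 times (15.1 ± 1.41 rpm), with log2 differences of 1.34 and 1.13 (SE 0.44 each).

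At 12 h the order of the hypoxia groups turned round. The severe libraries 2 and 3 had 5.89 rpm (14 reads) and 6.83 rpm (29 reads), and the moderate libraries 1 and 3 had 10.2 rpm (18 reads) and 11.3 rpm (32 reads). The control libraries had 4.59 rpm (13 reads), 5.27 rpm (13 reads) and 6.05 rpm (14 reads). The lower severe value lay within the control range, and both moderate values lay above all severe and control values. The severe mean was 1.20 times control (6.36 ± 0.665 rpm, n = 2, against 5.30 ± 0.731 rpm, n = 3; log2 difference 0.23, SE 0.41). The moderate mean was 2.03 times control (10.8 ± 0.742 rpm; log2 difference 0.91, SE 0.41).

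At 24 h the severe libraries 1 and 2 had 11.2 rpm (14 reads) and 9.38 rpm (19 reads), and the moderate libraries 2 and 3 had 9.53 rpm (12 reads) and 8.72 rpm (10 reads). The control libraries 1 and 2 had 1.28 rpm (3 reads) and 5.92 rpm (6 reads). All 4 hypoxia values lay above both control values, and the 2 hypoxia groups overlapped. The ratios to control were 2.85 for severe hypoxia (10.3 ± 1.25 against 3.60 ± 3.28 rpm) and 2.53 for moderate hypoxia (9.13 ± 0.573 rpm). The log2 differences of 1.50 and 1.35 (SE 0.44 each) rest on 9 control reads. Without control library 1, whose 3 reads are at the floor, they were 0.70 and 0.55, and without control library 2 they were 2.30 and 2.15.

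**Figure D1:**
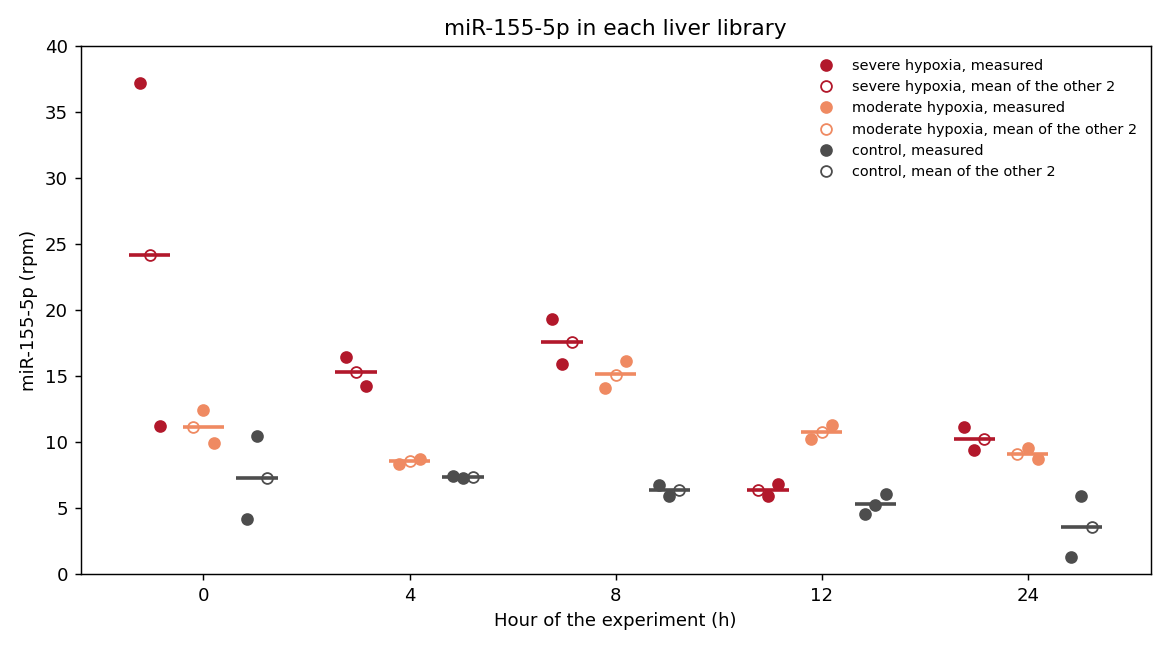
miR-155-5p in rpm (vertical axis) in each of the 45 libraries by hour of the experiment (horizontal axis), with severe hypoxia, moderate hypoxia and control side by side at each hour. Filled points are measured values, open points are deposited values equal to the mean of the other 2, and bars are group means of the measured values; severe library 1 at 0 h, at 37.2 rpm, is the highest point, and the severe group at 12 h lies at 5.89 to 6.83 rpm.

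Averaged over the 5 hours, the log2 difference from control was 1.10 for severe and 0.85 for moderate hypoxia (SE 0.20 each). Both comparisons use the same control libraries. The measured values lay above the control without overlap at 4 of 5 hours in severe hypoxia, all but 12 h, and at 4 of 5 hours in moderate hypoxia, all but 0 h. Such separation was common among all miRNAs tested. In severe hypoxia it was found for 27.1% of them at 0 h, 31.7% at 4 h, 15.3% at 8 h, 25.4% at 12 h and 55.9% at 24 h. In moderate hypoxia it was found for 46.3% at 0 h, 7.37% at 4 h, 6.05% at 8 h, 50.5% at 12 h and 29.3% at 24 h. Separation at 4 or more hours was rarer, with 3.48% of miRNAs (7 of 201) in severe and 1.52% (3 of 197) in moderate hypoxia. These shares are background to values that chose miR-155-5p, and nothing further is read from them.

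The sign of the difference was positive at 5 of 5 hours at both oxygen levels. In severe hypoxia this held for 2.49% of miRNAs (5 of 201), namely miR-10d-5p, miR-141-3p, miR-155-5p, miR-190b-5p and miR-27c-5p. In moderate hypoxia it held for 1.02% (2 of 197), and over all 10 comparisons for 1.04%, in both cases miR-10d-5p and miR-155-5p. Their names are given after their values were seen.

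Severe and moderate hypoxia did not keep 1 order. The ratio of the severe to the moderate mean was 2.17 at 0 h, 1.79 at 4 h, 1.16 at 8 h, 0.591 at 12 h and 1.12 at 24 h. The log2 differences of severe minus moderate were 0.83, 0.77, 0.20, -0.68 and 0.15. At 0 h the difference rested on severe library 1, and without it was 0.0097.

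Ordered by mean rpm, the 15 groups ran severe 0 h, severe 8 h, severe 4 h, moderate 8 h, moderate 0 h, moderate 12 h, severe 24 h, moderate 24 h, moderate 4 h, control 4 h, control 0 h, severe 12 h, control 8 h, control 12 h and control 24 h. Of the 14 neighbouring pairs in this order, 12 had overlapping measured values. The 2 that did not were moderate 8 h against moderate 0 h and moderate 4 h against control 4 h. The 9 highest groups were thus all hypoxia groups, and severe 12 h was the single hypoxia group among the controls in rpm. By share of the listed total, control 24 h came 9th, so that both moderate 12 h and severe 12 h ranked below a control group.

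In 12 of 15 groups the SD of the measured values was under the SD that counting alone gives for the reads implied. The exceptions were severe 0 h, with a coefficient of variation of 76.0% against 13.4% from counting, control 0 h with 61.1% against 23.6%, and control 24 h with 91.1% against 47.1%. Most groups hold 2 measured values, and how the value replaced by their mean was picked is not known, so these SDs do not show how far libraries spread.

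Reads pooled over the measured libraries of a group give a view that weights each library by its depth. Intervals are exact Poisson 95% intervals and cover counting error only, since reads of an amplified library are not independent molecules. Severe hypoxia had 24.8 rpm at 0 h (20.5 to 29.9), 15.2 at 4 h (12.1 to 18.8), 17.9 at 8 h (13.9 to 22.7), 6.49 at 12 h (4.70 to 8.74) and 10.1 at 24 h (6.92 to 14.1). Moderate hypoxia had 11.8 at 0 h (9.22 to 14.9), 8.60 at 4 h (6.03 to 11.9), 15.3 at 8 h (11.4 to 20.1), 10.9 at 12 h (8.08 to 14.4) and 9.14 at 24 h (5.73 to 13.8). The control had 7.14 at 0 h (5.00 to 9.89), 7.37 at 4 h (5.41 to 9.79), 6.40 at 8 h (4.32 to 9.14), 5.25 at 12 h (3.75 to 7.15) and 2.68 at 24 h (1.22 to 5.08). The intervals of severe hypoxia lay above those of the control at 0, 4, 8 and 24 h, and those of moderate hypoxia at 8, 12 and 24 h. At 0 and 4 h the moderate and control intervals overlapped, and overlap of intervals is not a test.

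**Figure D2:**
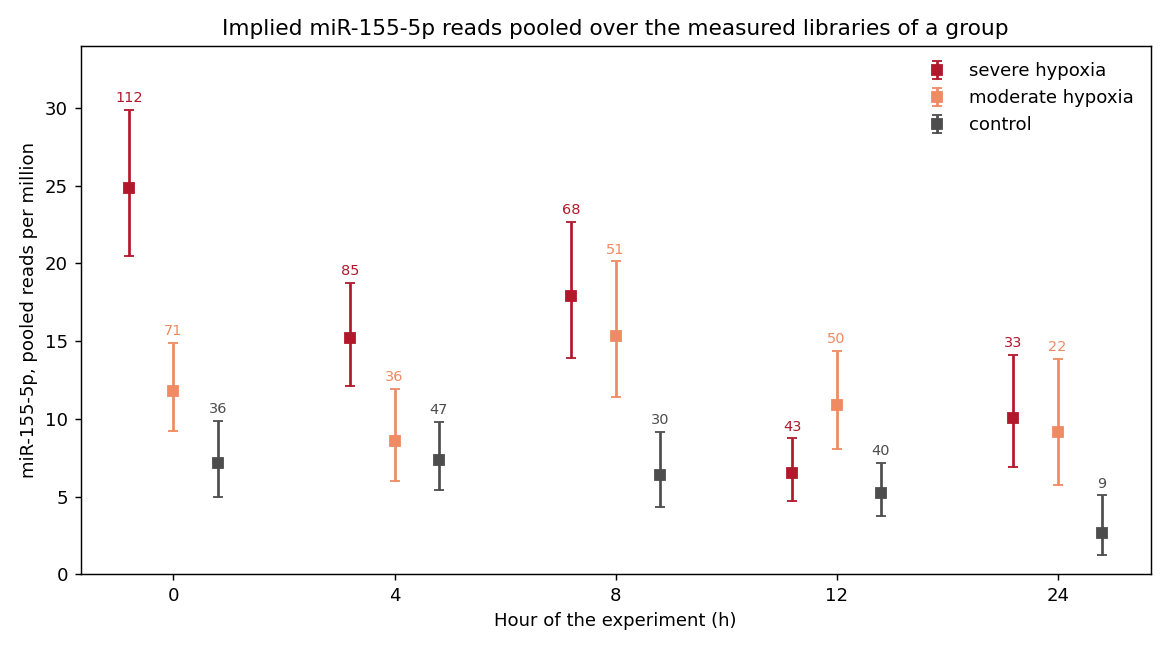
miR-155-5p in pooled rpm over the measured libraries of each group (vertical axis) by hour (horizontal axis), for severe hypoxia, moderate hypoxia and control, with exact Poisson 95% intervals for counting error only and the number of implied reads above each interval. The severe interval at 0 h, from 112 reads, is the highest, and the control point at 24 h rests on 9 reads.

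The denominator of the deposited rpm is not given, and listed totals ranged from 300084 to 961089 rpm, so the values were also taken as a share of that listed total. In severe hypoxia the share was 42.0 ± 29.8 ppm of that total at 0 h, 19.6 ± 2.82 at 4 h, 31.0 ± 4.69 at 8 h, 9.05 ± 0.323 at 12 h and 19.1 ± 2.24 at 24 h. In moderate hypoxia it was 17.2 ± 2.68, 17.3 ± 0.754, 33.0 ± 4.26, 11.5 ± 0.713 and 26.3 ± 0.0892 at the same hours. In the control it was 11.5 ± 7.18, 9.84 ± 0.286, 8.24 ± 0.619, 6.70 ± 0.933 and 11.7 ± 11.3 (SD, n = 2, and n = 3 for the control at 12 h). On this scale the severe values overlapped the control at 24 h alone, and at 12 h they did not. The moderate values overlapped it at 0 h alone.

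The log2 difference of severe hypoxia as a share was 1.66, 0.89, 1.72, 0.36 and 0.95 from 0 to 24 h, with a mean of 1.12, and that of moderate hypoxia was 0.63, 0.72, 1.81, 0.67 and 1.38, with a mean of 1.04. Scaling by the median of ratios gave means of 1.14 and 0.98. On the rpm scale the median difference of all miRNAs tested was itself away from 0, at 0.02, 0.07, -0.28, -0.23 and 0.45 for severe and 0.31, -0.51, -0.56, 0.19 and -0.04 for moderate hypoxia. At 24 h of severe hypoxia miR-155-5p thus stood 1.50 above control beside a median of 0.45. At 4 h of moderate hypoxia it stood 0.19 above control beside a median of -0.51, and on the share scale the same difference was 0.72. Severe minus moderate was positive at 4 of 5 hours in rpm, and as a share it was positive at 0 and 4 h and negative at 8, 12 and 24 h (1.03, 0.16, -0.09, -0.30 and -0.44).

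**Figure D3:**
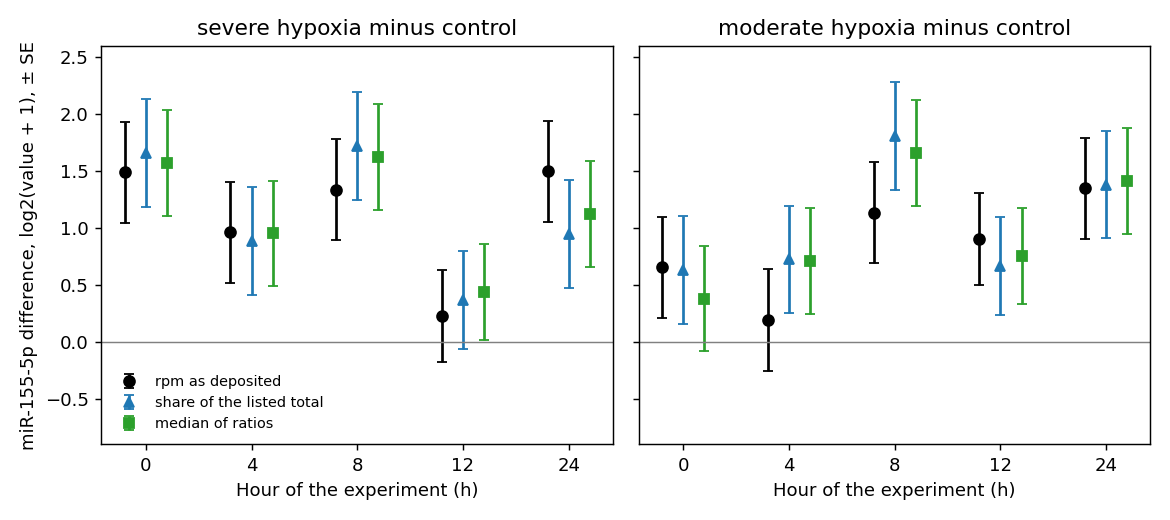
Log2 difference of miR-155-5p from control of the same hour (vertical axis, with SE) by hour (horizontal axis), in severe hypoxia on the left and moderate hypoxia on the right, under 3 scalings of the libraries. All 30 points lie above 0; the severe difference is lowest at 12 h under each scaling, between 0.23 and 0.44.

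Within the control group, which carries the effects of time, fasting and handling, the change of miR-155-5p over the 5 hours had been planned as an F-test. The control values it reads also entered the choice of miR-155-5p, so its result is given as a description that supports nothing further. It did not pass (F = 1.85, adjusted p = 0.176, limma with Benjamini-Hochberg adjustment over all miRNAs tested, n = 2 to 3 per hour), whereas 78.4% of the miRNAs tested did. Both the test and that percentage are in rpm. Control libraries had listed totals of 300084 to 359347 rpm at 24 h, against 612522 to 848065 rpm at the other hours. As a share of the listed total the adjusted p of miR-155-5p was 0.747, and by median of ratios 0.802 (F-test by limma). Control means lay between 3.60 and 7.36 rpm. In rpm the adjusted p was 0.0136 without control library 2 at 24 h, and 0.00821 with all 3 deposited values counted. The call thus depends on the few control reads at 24 h and on the averaged values.

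Other miRNAs of leukocytes and of inflammation did not share 1 direction with miR-155-5p. The immune list held 16 listed rows, all above the filter on low values. Its low rows, such as miR-132-5p, miR-142b-5p and miR-212-5p, still hold measured values below the floor of 3 reads. Its leukocyte markers were the miR-142 family and miR-150 of mature lymphocytes. It also held the NF-kB-induced miR-146, and miR-21, miR-132, miR-212 and miR-9, which respond to inflammatory signals in mammals. miR-9 is also abundant in neurons. miR-223 of myeloid cells and miR-147 were not analysed here. Rose and fell are used here for rows called higher or lower than control at the same hours, not for a change over time. Of 14 rows that could be tested as a mean over hours in severe hypoxia, 0 rose and 1 fell, beside 25.9% of all miRNAs called. The row that fell was miR-9-5p (log2 difference -0.98, adjusted p = 0.00156 by limma), and without 12 h its adjusted p was 0.178. The list's median was -0.04, beside -0.02 for all miRNAs tested.

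In moderate hypoxia, 2 of 14 rose and 2 fell as a mean over hours, beside 37.6% of all miRNAs called. miR-142b-5p (0.47, adjusted p = 0.0248) and miR-212-5p (0.64, adjusted p = 0.00972) rose. miR-9-3p (-0.63, adjusted p = 0.0118) and miR-9-5p (-0.72, adjusted p = 0.0123) fell, and as a share of the listed total neither was called (adjusted p = 0.0562 and 0.0861, limma). Each of these calls rests on single hours: without 0 h the adjusted p of miR-212-5p was 0.3, and without 24 h those of miR-142b-5p, miR-9-3p and miR-9-5p were 0.354, 0.674 and 0.172. The call of miR-142b-5p was also lost without moderate library 3 at 12 h (adjusted p = 0.0511). As a share of the listed total, miR-142b-5p, miR-212-5p and miR-21-5p were called for the mean, all higher. There miR-21-5p was at 0.37 (adjusted p = 0.0104, limma), against 0.16 (adjusted p = 0.251) in rpm. The list's median in rpm was 0.06, beside -0.17.

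At single hours of severe hypoxia the list had 13 calls, 5 higher and 8 lower, with miR-142a-3p and miR-142b-3p counted separately. Of all miRNAs tested, 6.33% to 33.8% were called at these hours. At 0 h 2 of 16 rows rose, beside 7.80% of all miRNAs. They were miR-142a-3p, at 186 and 175 rpm in severe libraries 1 and 2 against 104 and 115 rpm in control libraries 2 and 3, and miR-142b-3p. The pair carries almost the same numbers throughout and is read as 1 measurement (log2 difference 0.71, adjusted p = 0.0465 by limma). The call was lost without any 1 of the 6 libraries. These include severe library 3 and control library 1, whose averaged values were not used. Leaving those out changes only the variance and adjustment shared with other miRNAs. At 4 h 1 of 16 fell, beside 6.33%: miR-150-5p had 5.57 and 4.96 rpm in severe hypoxia, against 124 and 151 rpm in the control (log2 difference -4.46, adjusted p = 0.00935). The control at 4 h was the highest of the 15 groups for miR-150-5p, and without its library 3 the adjusted p was 0.0526.

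At 8 h, when miR-155-5p was 2.77 times control, 3 of 16 rows fell and 0 rose, beside 23.6%. As a share, miR-142b-5p was called higher (0.93, adjusted p = 0.0438 by limma), against 0.62 (adjusted p = 0.182) in rpm. miR-142a-3p had 61.0 and 78.9 rpm in severe hypoxia, against 151 and 145 rpm in the control, where the groups did not overlap (log2 difference -1.08, adjusted p = 0.000913, miR-142b-3p alike). miR-21-5p fell as well (-0.73, adjusted p = 0.0244), but not as a share of the listed total (adjusted p = 0.591), nor without control library 3, severe library 2 or severe library 3 (up to 0.184).

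At 12 h, when miR-155-5p in severe hypoxia was 1.20 times control, 1 of 15 rows rose and 2 fell, beside 32.4%. miR-146a-5p had 3611 and 22654 rpm in severe libraries 1 and 3, against 3936 and 3632 rpm in control libraries 2 and 3 (log2 difference 1.26, adjusted p = 0.0406). Without severe library 3 that difference was -0.066, and the call was also lost without control library 2 or control library 3. It was lost too without severe library 2, whose averaged value was not used, through the variance and adjustment shared with other miRNAs. miR-9-5p fell to 12.97, 9.45 and 5.88 rpm, against 71.6 to 75.2 rpm in the control (-2.89, adjusted p = 4.51e-05), and miR-21-5p fell too (-0.95, adjusted p = 0.00332). The 9.45 rpm of miR-9-5p in severe library 2, where 1 read is 0.421 rpm, is not a whole number of reads. It lies near the average of its companions, just outside the tolerance used, and was counted as measured. At 24 h 2 of 14 rose and 2 fell, beside 33.8%. miR-142a-5p (0.91, adjusted p = 0.0498) and miR-21-5p (1.08, adjusted p = 0.0015) rose in rpm and were not called as a share (adjusted p = 0.674 and 0.206). miR-132-5p (-1.78, adjusted p = 0.0204) and miR-9-5p (-2.12, adjusted p = 0.00185) fell. The measured miR-132-5p values were 2.47 and 0.80 rpm in severe libraries 2 and 3, and in that library 3 1 read is 0.796 rpm. Called lower as a share but not in rpm were miR-142a-3p with miR-142b-3p and miR-9-3p. Their share differences were -0.998 (adjusted p = 0.00141 by limma) and -1.68 (adjusted p = 0.00349). In rpm they were -0.31 (adjusted p = 0.275) and -0.96 (adjusted p = 0.0653). Control means at 0 and 24 h were 3.24 and 8.1 rpm for miR-132-5p, and 21.6 and 104 rpm for miR-9-5p. In severe hypoxia they were 1.7 and 1.6 rpm, and 31.0 and 21.3 rpm. The control of miR-9-5p changed over time (F-test by limma, adjusted p = 0.000423). The call of miR-142a-5p was lost without 5 of 6 libraries, among them control library 1 and severe library 3, whose averaged values were not used. That of miR-132-5p was lost without severe or control library 3, and that of miR-9-5p without control library 1.

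In moderate hypoxia the list had 15 calls at single hours, 7 higher and 8 lower, with miR-142a-3p and miR-142b-3p counted separately. Of all miRNAs tested, 2.75% to 36.9% were called at these hours. At 0 h, 6 of 16 rows rose, beside 17.1%, among them miR-212-5p, with 10.5 rpm in both measured moderate libraries against 1.67 and 1.41 rpm in the control (log2 difference 2.18, adjusted p = 0.00136). miR-21-5p (0.99, adjusted p = 0.00707), miR-21-3p (1.58, adjusted p = 0.016), miR-142b-5p (1.04, adjusted p = 0.026) and miR-142a-3p with miR-142b-3p (0.84, adjusted p = 0.0122) rose too. The calls of these 5 rows were lost under scaling by the median of ratios. Without moderate library 1 those of miR-21-5p, miR-21-3p and miR-142b-5p were lost, and without moderate library 2 those of miR-21-3p and the 3 miR-142 rows. Without control library 2 the 3 miR-142 rows were lost, and without control library 3 miR-21-3p. At this hour miR-155-5p overlapped the control.

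At 4 h of moderate hypoxia, 5 of 15 rows fell and 0 rose, beside 36.9%. miR-150-5p was listed at 3.98 rpm in all 3 moderate libraries, counted as 1 measurement, against 124 and 151 rpm in the control (-4.79, adjusted p = 0.00311, with the lone value assumed to vary like the other groups). miR-142a-5p (-1.38), miR-142b-5p (-1.17), miR-146a-3p (-1.59) and miR-21-3p (-1.40) fell in rpm (adjusted p = 0.004, 0.0074, 0.0093 and 0.0148) but not as a share of the listed total (adjusted p = 0.157, 0.0793, 0.157 and 0.225). Each of these 4 calls was lost without moderate library 2, that of miR-146a-3p also without control library 2 and that of miR-21-3p without control library 1.

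At 8 h and 12 h of moderate hypoxia, when miR-155-5p was 2.38 and 2.03 times control, limma called 0 of 16 rows, beside 33.0% and 2.75% of all miRNAs. There were 2 and 5 rows at an unadjusted p under 0.05, with smallest adjusted p of 0.0711 and 0.0972. At 24 h 1 of 14 rose and 3 fell, beside 20.2%. Control means at 0 and 24 h were 6.7 and 26.2 rpm for miR-9-3p, 21.6 and 104 rpm for miR-9-5p, and 3.24 and 8.1 rpm for miR-132-5p. In moderate hypoxia they were 6.8 and 3.0 rpm, 14.8 and 24.7 rpm, and 4.38 and 0.87 rpm. miR-142b-5p, at 5.56 rpm counted as 1 measurement against 0.99 and 1.84 rpm, rose (1.46, adjusted p = 0.0115). miR-9-3p (-2.68, adjusted p = 7.96e-05), miR-9-5p (-1.85, adjusted p = 0.00954) and miR-132-5p (-2.20, adjusted p = 0.032) fell. miR-132-5p was listed at 0.87 rpm in all 3 moderate libraries and is also 1 measurement there, so that for it and for miR-142b-5p the fit assumes that the lone value varies like the other groups. At 24 h 1 read is 0.872 rpm in moderate library 3, and 0.987 and 0.919 rpm in control libraries 2 and 3. The moderate value of miR-132-5p and both control values of miR-142b-5p thus lie below the floor of 3 reads. Except for miR-9-3p, each of these calls was lost without 1 control library. As a share, miR-142a-3p with miR-142b-3p was called lower too (-0.64, adjusted p = 0.0224 by limma), against -0.56 (adjusted p = 0.0746) in rpm.

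**Figure D4:**
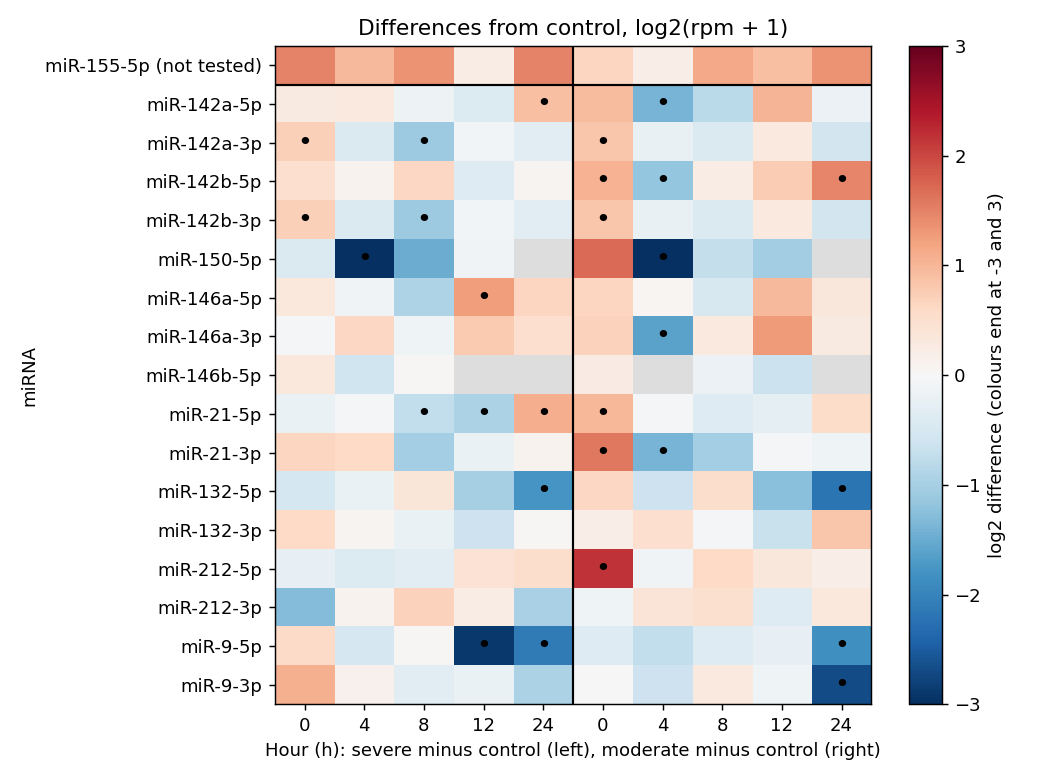
Log2 difference from control of the same hour (colour, red higher and blue lower) for miR-155-5p and the 16 rows of the immune list (vertical axis) at each hour (horizontal axis), severe hypoxia on the left and moderate hypoxia on the right. Dots mark rows with an adjusted p under 0.05, grey cells had no measured value in 1 or both groups, and the colours end at -3 and 3. miR-155-5p is red in all 10 columns, while miR-142a-3p is red at 0 h and blue at 8 h of severe hypoxia.

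Set against miR-142a-3p, used here as a leukocyte marker, miR-155-5p was also higher at most hours. It had 134 rpm per 1000 rpm of miR-142a-3p at 0 h of severe hypoxia, 110 at 4 h, 252 at 8 h, 50.8 at 12 h and 120 at 24 h. In moderate hypoxia the ratio was 56.9, 53.2, 139, 65.8 and 128, and in the control 66.7, 39.0, 42.9, 39.9 and 32.9. The ratio was thus above control at 5 of 5 hours of severe and at 4 of 5 hours of moderate hypoxia, the exception being 0 h. In severe hypoxia miR-142a-3p itself was lower than control at 8 h (log2 difference -1.08) and higher at 0 h (0.71). Other markers gave other results at single hours. Per miR-146a-5p, the ratio relative to control was 2.70, 2.21, 5.30, 0.346 and 1.82 from 0 to 24 h of severe hypoxia, and 0.973, 1.11, 3.33, 1.03 and 2.03 in moderate hypoxia. It was thus below control at 12 h of severe hypoxia, where miR-146a-5p was high in library 3. Per miR-142a-5p it was 1.50 to 3.01 times control in severe and 0.790 to 4.14 times in moderate hypoxia, and per miR-21-5p 1.35 to 4.62 and 0.767 to 3.12 times. These are ratios of group means, with no test, and their numerator is the value that chose miR-155-5p.

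Summed levels of cell type markers differed between groups, and their part in the values of miR-155-5p was not tested. The 5 leukocyte rows other than miR-155-5p summed to 1799 to 4893 rpm in severe hypoxia, 1336 to 6443 rpm in moderate hypoxia and 1247 to 4502 rpm in the control. At 8 h both hypoxia groups were well above control in miR-155-5p. The leukocyte sum was then 2026 to 2773 rpm in severe hypoxia and 1621 to 1691 rpm in moderate hypoxia, against 2761 to 2836 rpm in the control. Rescaled to the listed total it was 2166 to 3056, 2148 to 2490 and 2075 to 2250 rpm, so the lower sums in rpm were not seen on that scale. Most of the sum is miR-142a-5p, and miR-142a-3p and miR-142b-3p enter it as separate rows. Among the leukocyte rows miR-150-5p was listed at 0 in all libraries of moderate hypoxia and control at 24 h.

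Erythrocyte and hepatocyte markers are given likewise. The 2 arms of miR-144, abundant in red blood cells, summed at 0 h to 5436 to 5531 rpm in severe libraries against 1734 to 2002 rpm in control libraries. At 8 h they summed to 443 to 545 rpm in severe libraries against 3128 to 5820 rpm in control libraries. In moderate libraries they summed to 2146 to 2327 rpm at 0 h and to 621 to 1028 rpm at 8 h. As a mean over hours limma called miR-144-5p lower in severe hypoxia and both arms lower in moderate hypoxia. Of all miRNAs tested, 25.9% and 37.6% were called in these 2 comparisons. The part of miR-144 in the values of miR-155-5p was not tested. miR-451 and miR-486 were not analysed here. The 5 rows of miR-122, miR-192 and miR-194, miRNAs abundant in hepatocytes, were present in all libraries, at 55250 to 146115 rpm in severe hypoxia, 11607 to 135937 rpm in moderate hypoxia and 33504 to 109543 rpm in the control. In the lowest moderate sum, that of library 3 at 4 h, miR-192-5p was 3116 rpm, beside 39333 and 22997 rpm in libraries 1 and 2. The minimum of 11607 rpm therefore rests on that value. At 24 h the hepatocyte sum was 84739 to 88313 rpm in severe hypoxia and 49832 to 68381 rpm in moderate hypoxia, against 33504 to 53367 rpm in the control. Rescaled to the listed total it was 97400 to 102180, 93014 to 117350 and 69260 to 92128 rpm. On that scale the severe range lay within the moderate range, and both lay above the control. The lowest moderate sum (93014 rpm) was close to the highest control sum (92128 rpm), and averaged values enter these sums.

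Over the 15 group means of log2(rpm + 1), the miRNAs most like miR-155-5p, of 151 compared, were miR-205-5p (Pearson r 0.54), miR-222a-3p (0.47), miR-146a-3p (0.45), miR-133a-3p (0.41) and miR-199-5p (0.41). As shares of the listed total they were miR-205-5p (0.61), miR-222a-3p (0.44), miR-27e-3p (0.44), miR-17a-5p (0.41) and miR-222a-5p (0.41). miR-205-5p and miR-222a-3p led on both scales. The most negative coefficients were -0.53 in rpm and -0.53 as a share. Rows of the immune list that were compared ran from -0.31 (miR-9-5p) to 0.45 (miR-146a-3p) in rpm, and from -0.01 (miR-9-3p) to 0.35 (miR-146a-3p) as a share. Among them miR-142a-3p was at 0.00 in rpm and 0.14 as a share, and miR-142a-5p at 0.18 and 0.05. These coefficients describe 15 groups that share library scaling and depth, and carry no test.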

How the data were processed

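Small RNA of 15 to 35 nt was sequenced on an Illumina HiSeq instrument, per the labels' protocols, from 45 liver libraries. Trimming, alignment, the genome build and the denominator of the values are details not given in the sources used here. The deposited values were read as rpm from the values themselves, since low values step by whole reads, and from this step (values of 12 rpm or less, within 0.006 rpm) depth was inferred. At least 83.6% of low values per library were whole, with a median of 98.0%.

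Of 3607 sets of 3 values above 0, 85.4% held 1 value that matched the average of its 2 companions (to 0.0101 rpm or 0.1%) and 11.5% held 3 identical values. Averaged values were set to missing, 1 of each identical set was kept, and groups at 0 throughout were missing. How the replaced value was picked is not given, so p-values may be too small.

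Of 266 miRNAs, the 228 that averaged 1 rpm or more were fitted on log2(rpm + 1) with limma 3.58.1 in R 4.3.3, with a trend of variance on abundance and 15 groups in 1 fit. A group with 1 value takes its spread from the others. The residual SD of miR-155-5p was 0.471 log2 (16 degrees of freedom). A fold on this scale understates the change of low miRNAs. P-values were two-sided except the F-test, adjusted within each comparison by Benjamini-Hochberg, and called under 0.05. Pooled reads have exact Poisson intervals (scipy 1.17.1, Python 3.11.15). Figures were drawn with matplotlib 3.10.9.

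Pairing of libraries by replicate number was not seen, in a check that cannot exclude it, and no block was used in the main fit. miR-155-5p and the lists were chosen with earlier results of these data known. Named miRNAs are miR-155-5p, the immune list, and the 5 most correlated with miR-155-5p on each scale among those with a mean of at least 10 rpm and a measured value in every group. Alternatives changed the scaling, pseudocount, filter, averaged values, block, library or hour left out.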

Additional observations from a re-analysis of the deposited data

Results flagged for a closer look

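No result of miR-155-5p itself was marked for a closer look. The entries are rows of the immune list with a called difference from control, for which every measured hypoxia value lay above the control mean of the hour in 1 comparison and below it in another, between 2 hours or between the 2 oxygen levels. The gap between the comparisons was not tested, and the values are log2 differences from control. Gaps are the earlier hour minus the later, or severe minus moderate.

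miR-142a-3p and miR-142b-3p, which count as 1 measurement, were 0.71 above control at 0 h and -1.08 at 8 h of severe hypoxia, a gap of 1.80 for each. miR-21-5p in severe hypoxia stood at -0.73 at 8 h and -0.95 at 12 h but at 1.08 at 24 h, gaps to 24 h of -1.81 and -2.03. In moderate hypoxia miR-142b-5p stood at 1.04 at 0 h, -1.17 at 4 h and 1.46 at 24 h, gaps of 2.21 between 0 and 4 h and -2.63 between 4 and 24 h, and miR-21-3p at 1.58 at 0 h and -1.40 at 4 h, a gap of 2.98.

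Severe and moderate hypoxia had opposite signs at 4 h for miR-142a-5p (0.30 and -1.38, a gap of 1.68), miR-146a-3p (0.62 and -1.59, 2.22) and miR-21-3p (0.61 and -1.40, 2.01). The same held at 24 h for miR-142a-5p (0.91 and -0.18, 1.09).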

How the results depend on the processing

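The 12 differences of miR-155-5p from control gave 106 values under the other settings and 120 without 1 library, all above 0. Changing the filter cannot move these differences, nor can leaving out a library whose miR-155-5p value was averaged, so both counts include fixed outcomes. Of the 106 and 120 values, 99 and 110 moved by less than the residual SD of miR-155-5p. Those that moved more were, as a share of the listed total, severe 24 h (0.95), moderate 4 h (0.72) and moderate 8 h (1.81), by median of ratios moderate 4 h (0.71) and 8 h (1.66), and with a pseudocount of 4 severe 24 h (0.98) and moderate 24 h (0.86). Leaving out 1 library gave 0.67 to 2.31 for severe 0 h, 0.70 to 2.30 for severe 24 h, 0.078 to 1.23 for moderate 0 h and 0.55 to 2.15 for moderate 24 h. The adjusted p of the control over time was 0.0136 to 0.806 without 1 library and 0.00821 with all 3 deposited values.

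Immune list calls for the severe mean were 7 with all 3 deposited values, 2 with a pseudocount of 4, 3 without 0 h, 2 without 8 h, 0 without 12 h, 3 without 24 h, and 1 to 3 without 1 library. For the moderate mean they were 7 with all 3 values, 2 with a filter of 10 rpm, 1 without 24 h, and 2 to 5 without 1 library. Over single hours all 3 values gave 32 calls in severe and 38 in moderate hypoxia, and the median of ratios 8 in moderate hypoxia (2 higher, 6 lower). Of 33 calls, at single hours or as a mean over hours, 21 were lost without some 1 library. Of the same 33, 12 were ended by no other setting in which they were tested. The call of miR-146a-5p at 12 h of severe hypoxia reversed to -0.066 without severe library 3 and reached 2.58 without severe library 1. Counting averaged values as measurements lowers the spread by construction; for the other changes the cause was not tested.

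The replicate numbers of severe or moderate and control libraries of an hour were checked in 30 pairs, whose deviations correlated by -0.17 to 0.29 (median 0.0017), with 5 over 0.1 and 10 of 30 closest to their own number. Pairing by number was thus not seen. The check used all deposited values, and averaged values lie near their group mean, which weakens such correlations. It therefore cannot exclude pairing. With the replicate block the mean difference was 1.15 in severe and 0.93 in moderate hypoxia, the control over time had an adjusted p of 0.193, and list calls were 1 and 3 for the means and 10 and 14 for single hours. The block ended the calls of miR-142a-3p with miR-142b-3p at 0 h (adjusted p = 0.0713), miR-132-5p (0.0502) and miR-142a-5p (0.102) at 24 h of severe hypoxia, and of miR-142b-5p at 24 h (0.0684) and as a mean (0.078) in moderate hypoxia.

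Depth limits the precision of miR-155-5p, with 3 to 88 reads per measured value and 9 reads in the control at 24 h.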
